A study of Mus musculus with 20 samples.

Results

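The tissue inhibitors of metalloproteinases (Timp1, Timp2, Timp3 and Timp4) were followed in whole lung of mice exposed to cigarette smoke. They are 4 of the 16110 genes that the platform annotation names. Every probe annotated with one of these 4 symbols was taken, which gave 6 of 25697 probes: 2 for Timp1, 1 for Timp2, 2 for Timp3 and 1 for Timp4. Total RNA was measured on 20 Illumina mouse bead arrays, each probe's signal being the mean brightness of the beads that carry it. All mice were male AKR/J, an inbred strain, and 6 to 8 weeks old at the start. CS_Los mice breathed cigarette smoke and drank losartan at 0.6 g/L, a drug that blocks the type 1 receptor for angiotensin II (3 arrays). CS mice breathed smoke alone (7 arrays), RA_Los mice breathed room air and drank losartan (3 arrays), and RA mice breathed room air alone (7 arrays). Smoke from reference cigarettes was given for 2 h a day on 5 days a week at a mean carbon monoxide level of 350 ppm, for 6 to 7 weeks by the protocol and for 2 months by the series' design text. Batch 1 held 3 arrays of each group, and batch 2 held 4 CS and 4 RA arrays. The batches were read from a suffix in the sample titles, and the labels do not state what they are. The labels number the samples as replicates without stating that each came from a separate mouse, so p-values here measure a spread between samples that may be technical.

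The TIMP proteins are small secreted inhibitors that bind the zinc in the active site of matrix metalloproteinases, the enzymes that cut collagen, elastin and other parts of the extracellular matrix. TIMP1 is induced by inflammatory cytokines and binds the latent form of MMP9. TIMP2 is made by many cells at a steady level and, together with the membrane protease MMP14, takes part in the activation of MMP2. TIMP3 stays bound to the matrix and also inhibits sheddases and aggrecanases of the ADAM and ADAMTS families, among them ADAM17, and mice without it develop enlarged air spaces. TIMP4 is best known from the heart.

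In the RefSeq annotation of GRCm38.p6, Timp1 lies at chrX:20870166-20874737 inside the span of the synapsin gene Syn1, and Timp2 lies at chr11:118301061-118355411. Timp3 lies at chr10:86300412-86349505 inside Syn3, and Timp4 at chr6:115244444-115252205 inside Syn2. The 250 bases upstream of the start of Timp3, the gene with the probe that differed between CS and RA, and of Timp1, the member known as inducible, are printed from RefSeq with matches to 2 motifs in capitals, at chr10:86300162-86300411 and chrX:20869916-20870165 (both plus strand). The motifs are AGGAAG, a core bound by ETS factors, and GGGCGG, the Sp1 box, each searched on both strands, so CCGCCC is a match to the Sp1 box.
Timp3: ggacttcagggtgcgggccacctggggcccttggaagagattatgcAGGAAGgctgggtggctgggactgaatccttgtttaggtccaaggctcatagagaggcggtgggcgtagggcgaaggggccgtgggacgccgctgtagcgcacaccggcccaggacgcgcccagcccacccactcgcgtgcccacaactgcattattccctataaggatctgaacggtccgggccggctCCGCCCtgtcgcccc
Timp1: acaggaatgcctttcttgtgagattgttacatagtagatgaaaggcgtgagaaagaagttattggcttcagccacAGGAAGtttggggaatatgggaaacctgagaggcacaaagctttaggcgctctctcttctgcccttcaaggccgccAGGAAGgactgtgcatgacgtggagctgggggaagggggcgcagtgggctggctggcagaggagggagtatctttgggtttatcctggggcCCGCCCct
The Timp3 window held 1 Sp1 match and 1 ETS match and the Timp1 window 1 Sp1 match and 2 ETS matches. Over the same window of 32851 promoters, 32.7% held the Sp1 letters and 29.5% the ETS letters. The windows differ in base composition. Timp3 had 65.6% G or C and 18 CpG dinucleotides, and Timp2 had 68% and 21, whereas Timp1 had 54.4% and 6 and Timp4 had 53.6% and 2. The median over all promoters was 52.4% and 6. The AP-1 letters TGANTCA (6.75% of promoters) and the TATA letters TATAAA (12.4%) were in none of the 4 windows, which says only that these letters are not in these 250 bases.

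Signals differed between the batches over the whole array. An array's median over all probes lay between 57.2 and 72.3 in batch 1 and between 87.4 and 100.4 in batch 2. Probes with a detection p under 0.05 numbered 13946 to 15155 per array in batch 1 and 15089 to 15784 in batch 2. The number of arrays limits the precision. Both probes of Timp1, both of Timp3 and that of Timp2 were detected on 20 of 20 arrays. For Timp4 the number was 2 of 3 in CS_Los, 5 of 7 in CS, 2 of 3 in RA_Los and 6 of 7 in RA. All 6 probes passed the filter of detection on at least 3 arrays, and they were tested among 17012 probes. Values below are log2 signals after background correction and quantile normalization unless a raw signal is named. Smoke was compared in a limma fit of group and batch over the 14 CS and RA arrays, with Benjamini-Hochberg adjustment over all 17012 probes.

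Of the Timp probes, 1 of 6 was called in CS against RA at an adjusted p under 0.05, and it was lower in CS. Over the array 11.1% of probes were called, 5.23% higher and 5.85% lower, so the Timp count stood near the background. The median log2 difference of the 6 probes was -0.06, against -0.00136 for all probes. The called probe was the brighter of the 2 Timp3 probes, and 2 of the 6 had an unadjusted p under 0.05, both of them Timp3 probes. Over the array an unadjusted p under 0.05 was reached by 4263 of 17012 probes. The per-array plot shows the 6 probes by group and batch.

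**Figure D1:**
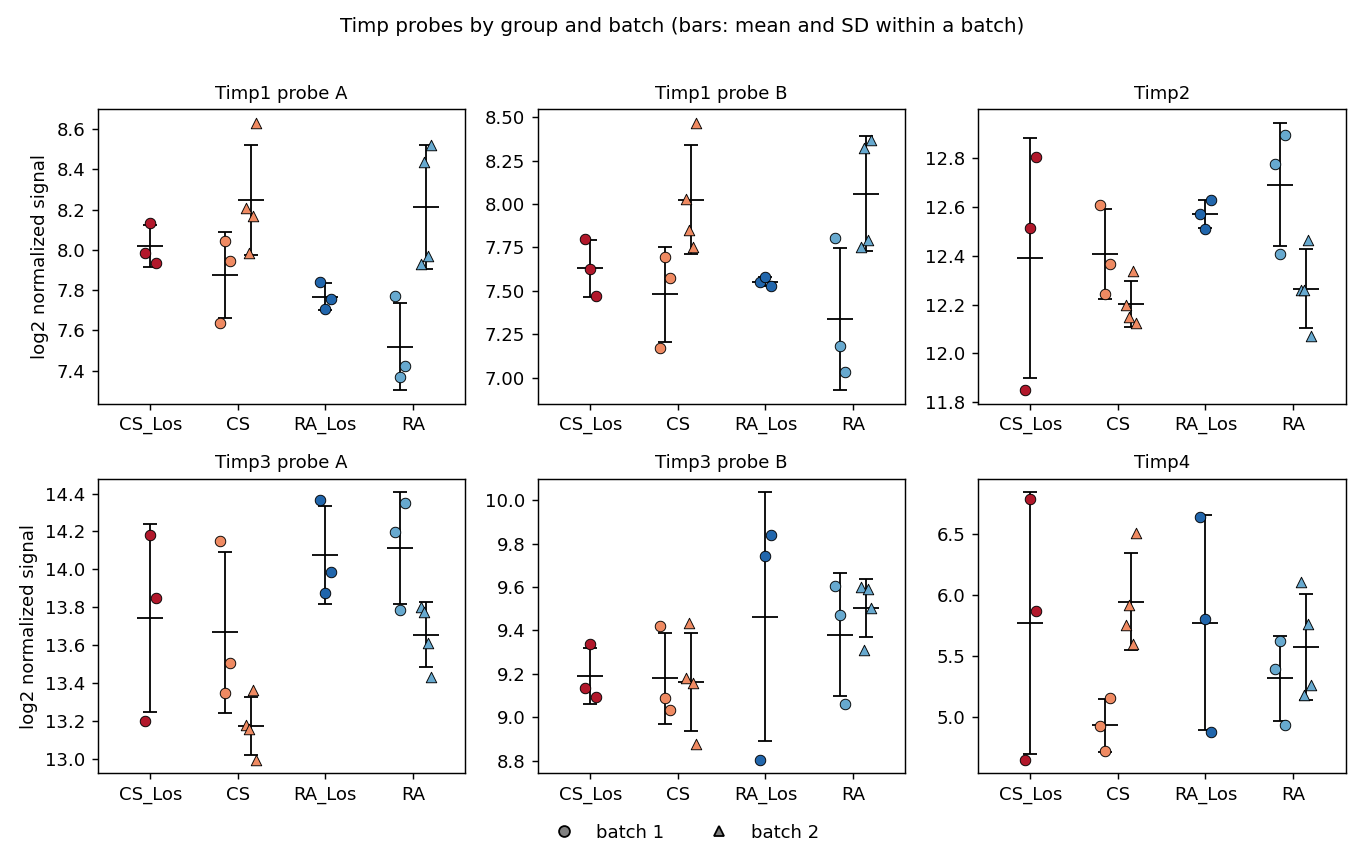
Log2 normalized signal of the 6 Timp probes (vertical axes, a separate range per panel) in CS_Los, CS, RA_Los and RA lungs. Each point is an array, circles are batch 1 and triangles batch 2, and bars give the mean and SD within a batch. Timp3 probe A averaged 13.17 in CS and 13.65 in RA in batch 2, where no CS array reached the lowest RA array.

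Timp3, the matrix-bound inhibitor, fell in CS lungs by its brighter probe (probe A, array identifier 1400309). In batch 2 its raw signal was 13850.2, 12121.9, 14603 and 12583.5 in CS lungs, against 21390.3, 21390.8, 16847.3 and 16638.5 in RA lungs. All 4 CS arrays lay below all 4 RA arrays there, as for 5.9% of all probes in raw signal. In batch 1 its raw signal was 10463.2, 6045.7 and 8403.8 in CS lungs, against 11410.1, 10577.8 and 14069.5 in RA lungs. The 3 CS arrays again lay below the 3 RA arrays, as for 8.53% of all probes in raw signal.

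After normalization, Timp3 probe A averaged 13.17 ± 0.152 in CS and 13.65 ± 0.171 in RA in batch 2 (SD, n = 4 each), with the groups apart. Groups were apart in this direction for 6.65% of all probes in batch 2. In batch 1 it averaged 13.67 ± 0.426 in CS and 14.11 ± 0.294 in RA (SD, n = 3 each), and after normalization these groups overlapped. The overlap came from CS replicate 1 at 14.15, which lay above RA replicate 2 at 13.79, whereas CS replicates 2 and 3 stood at 13.34 and 13.51, below all 3 RA arrays. Over both batches the log2 difference was -0.47 ± 0.123 (SE; 95% interval -0.72 to -0.21; n = 7 each; limma adjusted p = 0.0222), so the signal fell by 27.6% in CS. The difference was -0.44 within batch 1 (limma adjusted p = 0.488; 0.441% of probes called) and -0.48 within batch 2 (limma adjusted p = 0.0338; 5.13% called). The difference of these 2 values, the interaction of smoke with batch, was 0.04 ± 0.256 (SE; limma adjusted p = 0.999). Without CS replicate 2 the probe missed the threshold, with a log2 difference of -0.41 and an adjusted p of 0.0517. It also missed it with no batch term (adjusted p = 0.224) and when all 20 arrays shared the estimate of the spread (adjusted p = 0.0737), at an unchanged log2 difference of -0.47.

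Several expression programmes differed between the same CS and RA arrays. Over all 11196 genes with a tested probe, 5.5% were higher and 6.44% lower in CS, with a median log2 difference of -0.01, and the counts of each list stand against these shares. Of 6 heat shock genes 6 fell in CS (median log2 difference -1.73), and of 8 glucocorticoid-induced genes 8 fell (median -1.25). Of 6 neutrophil markers 6 rose (median 1.19), and of 4 erythroid markers 3 fell (median -1.69). Of 12 clock genes 3 rose and 4 fell, Per1 being in this list and in the glucocorticoid-induced list. Each array's mean over a list was set against the RA mean of its batch. On that scale heat shock genes stood at -2.23 to -1.42 on CS arrays of batch 1 and at -0.27 to 0.36 on RA arrays of batch 1, and at -2.19 to -1.73 in CS and -0.39 to 0.45 in RA in batch 2. Glucocorticoid-induced genes stood at -1.26 to -0.92 in CS and -0.09 to 0.11 in RA in batch 1, and at -1.48 to -0.91 in CS and -0.14 to 0.19 in RA in batch 2. Neutrophil markers stood at 1.12 to 1.52 in CS and -0.22 to 0.33 in RA in batch 1, and at 0.72 to 1.64 in CS and -0.44 to 0.17 in RA in batch 2. Erythroid markers overlapped in batch 2, at -1.57 to -0.21 in CS and -1.65 to 1.03 in RA. CS replicate 1, the smoke array with Timp3 probe A at the level of RA, had the least low heat shock level of the 7 CS arrays, at -1.42. In the glucocorticoid-induced list CS replicate 7 was least low, at -0.914 against -0.918 for CS replicate 1. Timp3 probe A stood at -0.66 on CS replicate 7. The part of these programmes in the Timp3 result was not tested. Of 7 fibroblast, 5 endothelial and 4 smooth muscle markers 0 were called, at adjusted p under 0.05, against 5.5% of all genes higher and 6.44% lower. In whole lung, fewer cells of a type and less RNA per cell cannot be told apart.

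The dimmer Timp3 probe (probe B, array identifier 6660427) did not pass the test. Its raw signal in batch 2 was 927.7, 996.9, 842.3 and 778 in CS lungs, against 1249.1, 1061.6, 1099.9 and 1061 in RA lungs, with the groups apart (as for 5.9% of all probes in raw signal). In batch 1 it was 435.5, 341.1 and 404.9 in CS lungs, against 494.3, 528.6 and 405.1 in RA lungs. The groups overlapped there. After normalization they overlapped in both batches, with means of 9.16 ± 0.227 in CS and 9.50 ± 0.134 in RA in batch 2 (SD, n = 4 each). Its log2 difference was -0.28 ± 0.106 (SE; 95% interval -0.50 to -0.05; limma adjusted p = 0.105). It was called without RA replicate 3 (adjusted p = 0.0368) and without CS replicate 1 (adjusted p = 0.0453). It was also called with the authors' log2 values (adjusted p = 0.0262) and with array weights (adjusted p = 0.0471). The mean of both Timp3 probes gave a log2 difference of -0.37 (limma adjusted p = 0.0161), an alternative chosen after seeing the data.

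No relation between the 2 Timp3 probes was detected among arrays of the same group and batch. Each array's deviation from the mean of its group and batch was taken for the 6 probes, and 15 relations between probes were computed over 20 arrays (100000 permutations each, two-sided). The permutations ran freely over the 20 arrays, although deviations within a group and batch are tied by their mean (14 residual degrees of freedom). These permutation p-values may therefore be too small. For Timp3 probe A and probe B Pearson's r was -0.07 (permutation p = 0.78, adjusted 0.88) and Spearman's rho -0.05 (permutation p = 0.82, adjusted 0.94). Without the 2 arrays farthest from the median of probe A, r was -0.24. The first RA_Los array stood at 0.29 for probe A and -0.66 for probe B, and the first CS_Los array at -0.54 and -0.05. The platform annotation gives both probes the same Timp3 transcript record, and where each lies in it is not analysed here.

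Timp2 moved with the brighter Timp3 probe. The deviations of Timp2 and Timp3 probe A had r = 0.76 (permutation p = 0.00013, adjusted 0.000975) and rho = 0.77 (permutation p = 9e-05, adjusted 0.000675), and r was 0.77 without the 2 farthest arrays. The first CS_Los array had the lowest deviation of all 20 arrays in both genes, and the left panel of the covariation plot shows the relation. These deviations share the array and its normalization. The 2 Timp1 probes also moved together, with r = 0.91 and rho = 0.88. Both had a permutation p of 1e-05, the smallest that 100000 permutations can give (adjusted 0.00015), and r was 0.87 without the 2 farthest arrays. No relation among the other 12 passed for r. The lowest adjusted p among them was 0.05 for the rho of Timp1 probe B and Timp2, at -0.57.

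**Figure D2:**
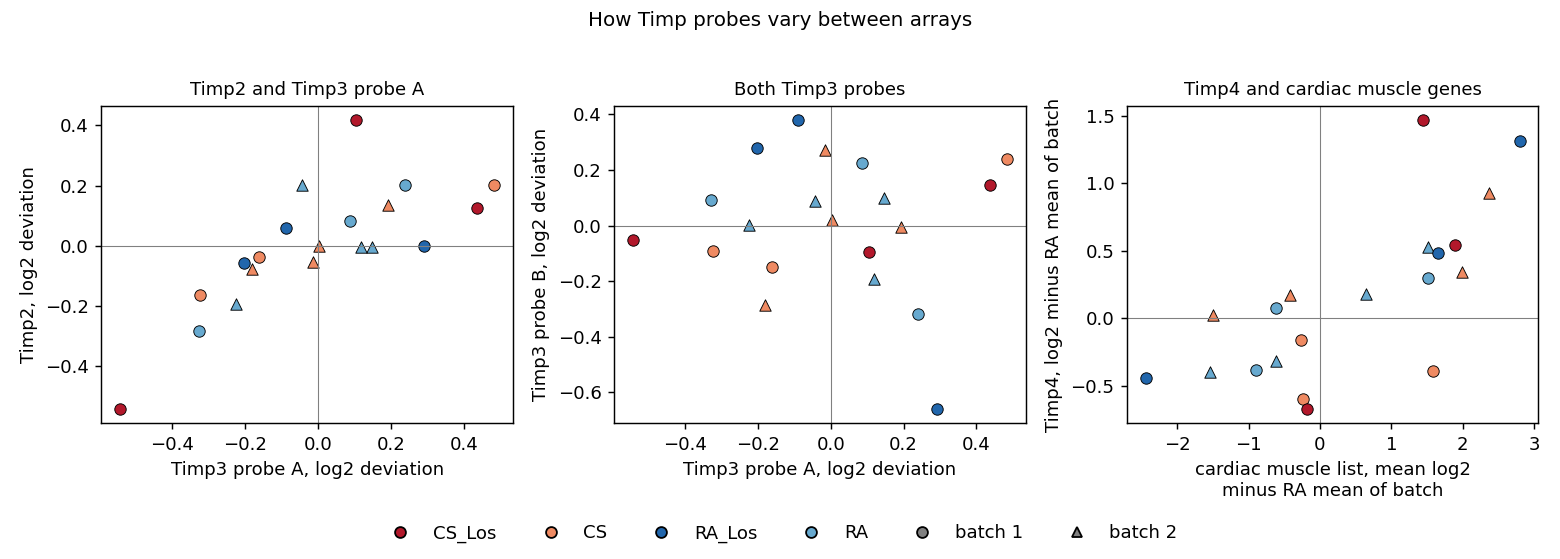
Left and middle, deviation of each array from the mean of its group and batch (log2) for Timp3 probe A (horizontal axes) against Timp2 and Timp3 probe B. Right, Timp4 against the mean of 6 cardiac muscle genes, both as log2 minus the RA mean of the batch. Colours mark groups, circles batch 1 and triangles batch 2. The points rise together for Timp2 and Timp3 probe A (r = 0.76) and show no slope for the 2 Timp3 probes (r = -0.07).

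Timp2, the partner of MMP14 in MMP2 activation, was lower in CS than in RA without passing the test. In batch 1 the raw signal of its probe (array identifier 2070152) was 3636.1, 2741.8 and 3712.4 in CS lungs, against 4400.5, 3970.5 and 5683.5 in RA lungs. In batch 2 it was 7144.7, 6236.4, 7110.3 and 6955.4 in CS lungs, against 7584.3, 7868.1, 7809.9 and 6486 in RA lungs. The groups were apart in raw signal in batch 1, as for 8.53% of all probes, and overlapped in batch 2. On the normalized log2 scale they overlapped in both batches. Timp2 averaged 12.41 ± 0.185 in CS and 12.69 ± 0.253 in RA in batch 1 (SD, n = 3 each), and 12.20 ± 0.095 in CS and 12.26 ± 0.162 in RA in batch 2 (SD, n = 4 each). The log2 difference was -0.16 ± 0.0953 (SE; 95% interval -0.36 to 0.04; n = 7 each; limma adjusted p = 0.327).

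Timp1, the cytokine-inducible inhibitor, did not pass the test for smoke with either probe. In batch 1 the raw signal of probe A (array identifier 160332) was 149.5, 184.1 and 205.6 in CS lungs, against 158.4, 144.7 and 149.1 in RA lungs. In batch 2 it was 495.6, 403.3, 442.3 and 666.3 in CS lungs, against 424.1, 596.6, 382.6 and 545.8 in RA lungs. The groups overlapped in both batches, and every signal of batch 2 exceeded every signal of batch 1. Quantile normalization left part of that batch difference, since the RA mean was 7.52 ± 0.217 in batch 1 (SD, n = 3) and 8.21 ± 0.307 in batch 2 (SD, n = 4). The log2 difference of Timp1 probe A was 0.17 ± 0.129 (SE; 95% interval -0.10 to 0.44; n = 7 each; limma adjusted p = 0.450). It was 0.35 within batch 1 and 0.03 within batch 2. Probe B (array identifier 4640215) ran from 118.4 through a median of 342.4 to 600.9 in CS lungs, against 120.4, 344.1 and 552.3 for the lowest, median and highest RA array. Its log2 difference was 0.04 ± 0.151 (SE; 95% interval -0.28 to 0.36; limma adjusted p = 0.901), 0.14 within batch 1 and -0.03 within batch 2.

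A list of known inducers of Timp1, with their receptors and signalling genes, gave 0 higher and 2 lower among 18 tested genes of 21 listed. Its median log2 difference was -0.04. Tnf, Fosl1 and Fosl2 were the listed genes not tested, Tnf being detected on at most 1 array. Over all genes 5.5% were higher and 6.44% lower in CS. Fos, a subunit of the AP-1 factor, fell by 1.18 ± 0.264 on the log2 scale (SE; limma adjusted p = 0.00799). Lifr, the receptor of leukaemia inhibitory factor, fell by 0.30 ± 0.0858 (SE; limma adjusted p = 0.0324). Il1b, the cytokine interleukin 1 beta, had a log2 difference of 0.37 (adjusted p = 0.122), and Il6 of 0.02 (adjusted p = 0.936; detected on 8 of 20 arrays).

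Timp4 was close to background. The raw signal of its probe (array identifier 2470608) was 55.2, 51.6 and 60.8 in CS lungs of batch 1, against 60.9, 69.8 and 57.2 in RA lungs of batch 1. In batch 2 it was 114.6, 124, 98.5 and 182.3 in CS lungs, against 147.8, 89.8, 110.5 and 87.6 in RA lungs. The groups overlapped in both batches, and in batch 1 only 1 CS array and 2 RA arrays had a detection p under 0.05. The log2 difference was 0.05 ± 0.187 (SE; 95% interval -0.35 to 0.44; n = 7 each; limma adjusted p = 0.914). It was -0.38 within batch 1 and 0.37 within batch 2. The difference between these, the interaction of smoke with batch, was -0.75 ± 0.341 (SE; limma adjusted p = 0.999), where 0.00588% of probes were called. The interaction was -0.35 without background correction and -0.43 with the authors' log2 values.

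The spread of Timp4 between arrays of a group and batch was the widest of the 6 probes, with an SD of 0.61 on the log2 scale, against 0.23 to 0.31 for the other 5. Timp4 and the mean of 6 cardiac muscle genes are set side by side in the right panel of the covariation plot, each as log2 minus the RA mean of the batch. The first RA_Los array stood at 1.32 for Timp4 and 2.80 for the cardiac genes, the second CS_Los array at 1.47 and 1.45, and CS replicate 7 at 0.93 and 2.37. These were the 3 arrays with the highest Timp4. The third RA_Los array stood at -0.44 and -2.44, CS replicate 1 at -0.39 and 1.59, and the first CS_Los array at -0.67 and -0.19. The cardiac list spanned -0.19 to 1.89 in CS_Los, -0.27 to 1.59 and -1.5 to 2.37 in CS of batches 1 and 2, -2.44 to 2.80 in RA_Los, and -0.90 to 1.52 and -1.54 to 1.52 in RA of batches 1 and 2. Of its 8 genes 6 were tested and 0 called for smoke, beside 5.5% of all genes higher and 6.44% lower. The atrial genes Myl7 and Myl4, the myosin gene Myh6 and the actin gene Actc1 were detected on 20 of 20 arrays. Tnni3 was detected on 16 arrays and Nppa on 10, and the untested Ryr2 on 0. The part of heart tissue in the Timp4 values was not tested.

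Losartan was given in batch 1 alone, and its comparisons used the 12 arrays of that batch with all 4 groups in one limma fit. In CS_Los against CS, 0 of 6 Timp probes and 0% of all probes were called, with 998 of 17012 probes at an unadjusted p under 0.05. In RA_Los against RA, 0 of 6 Timp probes and 0.00588% of all probes were called, with 844 at an unadjusted p under 0.05. In CS_Los against RA_Los, 0 of 6 and 0% were called, with 948 at an unadjusted p under 0.05. In CS_Los against RA, 0 of 6 and 0.00588% were called, with 1079 at an unadjusted p under 0.05. A test of whether losartan acted differently under smoke (their interaction) called 0 of 6 Timp probes and 0% of all probes (1226 at an unadjusted p under 0.05). Among the Timp probes only Timp1 probe A in CS_Los against RA had an unadjusted p under 0.05 in these comparisons. The comparisons share groups, so their values are not independent. The plot of differences sets the 5 group comparisons side by side.

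**Figure D3:**
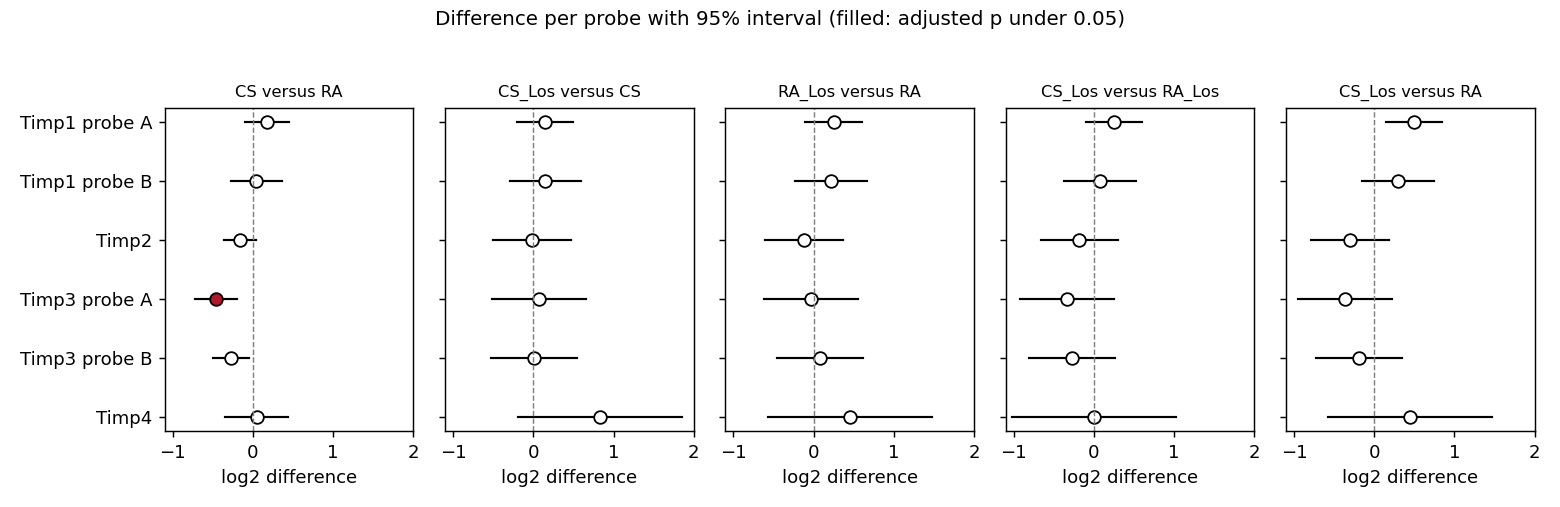
Log2 difference of the 6 Timp probes (vertical axis) with its 95% interval in 5 comparisons, one per panel. The filled point marks an adjusted p under 0.05, which Timp3 probe A in CS against RA reached at -0.47, whereas 0 of 6 probes did in each of the 4 comparisons with losartan groups.

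Timp3 had no detectable difference with losartan at this number of arrays. The raw signal of probe A was 6671.8, 12613.8 and 10275.3 in CS_Los lungs and 13607.9, 13170.4 and 9281.7 in RA_Los lungs. Within batch 1 the normalized means were 13.74 ± 0.498 in CS_Los, 13.67 ± 0.426 in CS, 14.08 ± 0.258 in RA_Los and 14.11 ± 0.294 in RA (SD, n = 3 each). Both smoke groups stood below both room air groups, and neighbours in the order of means differed by less than the larger of their SDs. The log2 difference was 0.08 in CS_Los against CS (95% interval -0.51 to 0.66) and -0.04 in RA_Los against RA (-0.62 to 0.55). In CS_Los against RA_Los it was -0.33 (-0.92 to 0.25; limma adjusted p = 0.958), and it was -0.062 without CS_Los replicate 1 and -0.55 without CS_Los replicate 2. Each of these intervals is wide enough to hold the -0.47 measured for smoke over both batches.

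The 3 CS_Los arrays were not alike in Timp3 probe A. Set against the RA mean of batch 1, the first stood at -0.91, the second at 0.07 and the third at -0.26. The heat shock list stood at -2.35, 0.12 and -1.24 on the same arrays, and the glucocorticoid-induced list at -1.51, 0.12 and -0.53. Of these 3 arrays, the one lowest in Timp3 probe A was thus lowest in both lists, and the one highest in probe A highest. On the RA_Los arrays Timp3 probe A stood at 0.26, -0.24 and -0.12, the heat shock list at 0.40, -0.97 and -1.68, and the glucocorticoid-induced list at -0.01, -0.49 and -0.84. The first of these was highest in all 3 measures, whereas the second was lowest in Timp3 probe A and the third lowest in both lists. RA replicate 3 had the highest Timp3 probe A of the RA arrays of batch 1 (0.24) and the lowest heat shock level (-0.27). Timp3 probe B stood at -0.24, -0.04 and -0.29 on the CS_Los arrays and at -0.58, 0.36 and 0.46 on the RA_Los arrays. Its order thus differed from that of probe A in both groups. The part of these programmes in the Timp3 values was not tested. Probe B of Timp3 had raw signals of 426.7, 488 and 416.1 in CS_Los lungs and 333.3, 825.6 and 594.5 in RA_Los lungs. The RA_Los values spanned those of all other groups of batch 1.

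Timp1 probe A was higher on all 3 CS_Los arrays than on the RA arrays of batch 1, without passing the test. The raw signal of probe A was 207.2, 225 and 203.7 in CS_Los lungs and 184.4, 220.6 and 166.2 in RA_Los lungs. The normalized means within batch 1 were 8.02 ± 0.105 in CS_Los, 7.87 ± 0.212 in CS, 7.77 ± 0.0664 in RA_Los and 7.52 ± 0.217 in RA (SD, n = 3 each). In CS_Los against RA the log2 difference was 0.50 ± 0.162 (SE; 95% interval 0.15 to 0.85; limma adjusted p = 0.699), with the groups apart. They were apart in this direction for 4.7% of all probes. After normalization CS_Los arrays also lay above all RA_Los arrays, by 0.25 ± 0.162 on the log2 scale (SE; limma adjusted p = 0.937), as for 4.31% of all probes. In raw signal CS_Los and RA_Los overlapped, with an RA_Los array at 220.6. The log2 difference was 0.14 in CS_Los against CS (95% interval -0.21 to 0.49) and 0.25 in RA_Los against RA (-0.10 to 0.60). Probe B averaged 7.63 ± 0.164 in CS_Los, 7.48 ± 0.275 in CS, 7.55 ± 0.024 in RA_Los and 7.34 ± 0.410 in RA of batch 1 (SD, n = 3 each), and its groups overlapped in all 4 comparisons with losartan groups. In CS_Los against RA its log2 difference was 0.29 (95% interval -0.15 to 0.74). Neutrophil markers stood at 0.99 to 2.04 on CS_Los, 1.12 to 1.52 on CS, 0.54 to 0.76 on RA_Los and -0.22 to 0.33 on RA arrays of batch 1, and their part in the Timp1 values was not tested.

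Timp2 and Timp4 showed no call with losartan either. The raw signal of Timp2 was 2645.1, 4284 and 5393.4 in CS_Los lungs and 4069.5, 5284.5 and 3853.5 in RA_Los lungs. Its normalized mean was 12.39 ± 0.491 in CS_Los and 12.57 ± 0.0587 in RA_Los (SD, n = 3 each), the wider spread being in CS_Los. The log2 difference of Timp2 was -0.02 in CS_Los against CS (95% interval -0.50 to 0.47) and -0.12 in RA_Los against RA (-0.60 to 0.36). The raw signal of Timp4 was 51.6, 108.3 and 69.4 in CS_Los lungs and 100.6, 86.2 and 56.6 in RA_Los lungs. Its log2 difference of 0.83 in CS_Los against CS had a 95% interval of -0.19 to 1.85 (limma adjusted p = 0.895), wider than that of any other Timp probe in this comparison. It was 1.39 without CS_Los replicate 1, 0.32 without CS_Los replicate 2, and 0.43 without background correction. With the authors' log2 values it was 0.39 and with 75th percentile centring 0.55. In CS_Los against RA the log2 difference of Timp4 was 0.45 (95% interval -0.57 to 1.47), and it was 1.01 without CS_Los replicate 1 and -0.061 without CS_Los replicate 2.

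The proteases that TIMPs inhibit were measured on the same arrays. Of 23 listed matrix metalloproteinases 20 were on the array and 14 were tested, with 3 higher and 1 lower in CS, against 5.5% of all genes higher and 6.44% lower. The list's median log2 difference was -0.00447, against -0.00503 over all genes. Mmp9, the gelatinase carried by neutrophils, rose by 0.90 ± 0.179 on the log2 scale (SE; limma adjusted p = 0.00359). Mmp14, the membrane protease that binds TIMP2, rose by 0.34 ± 0.0883 (SE; adjusted p = 0.0205), and the macrophage elastase Mmp12 rose by 0.33 ± 0.0972 (SE; adjusted p = 0.0406). Mmp3, stromelysin 1, fell by 0.43 ± 0.128 (SE; adjusted p = 0.0381). Mmp2, the gelatinase that MMP14 activates, had a log2 difference of 0.27 ± 0.172 (SE; adjusted p = 0.356). Of 8 tested ADAM genes Adam28 rose by 0.52 ± 0.120 (SE; adjusted p = 0.00999) and Adam15 fell by 0.41 ± 0.0854 (SE; adjusted p = 0.00536), with a list median of -0.08. Adam17, the sheddase of tumour necrosis factor that TIMP3 inhibits, had a log2 difference of -0.15 (adjusted p = 0.237). Of 7 tested ADAMTS genes Adamts15 fell by 0.49 ± 0.154 (SE; adjusted p = 0.0489), with a list median of -0.03. Both lists stand beside 5.5% higher and 6.44% lower over all genes. The plot of inhibitors and proteases shows each tested gene.

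**Figure D4:**
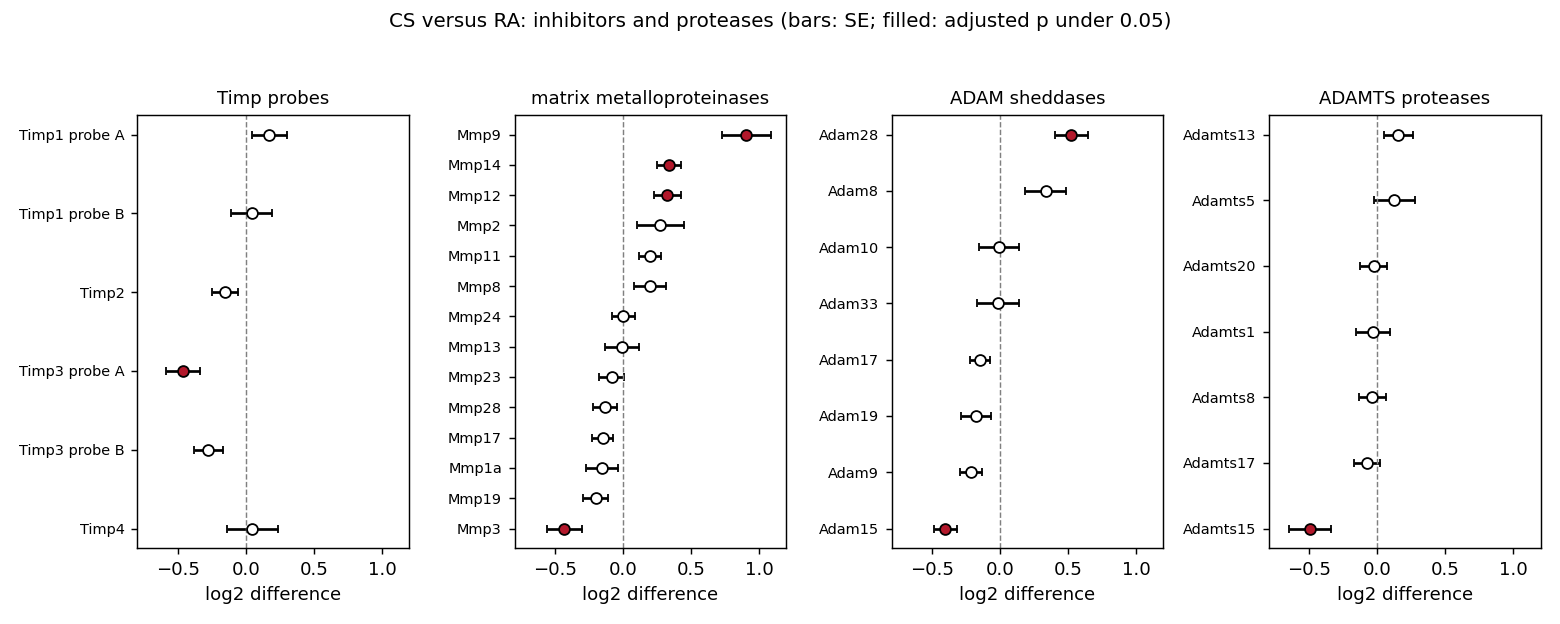
Log2 difference in CS against RA (horizontal axes) with its SE for the 6 Timp probes, 14 matrix metalloproteinases, 8 ADAM sheddases and 7 ADAMTS proteases. Filled points have an adjusted p under 0.05. Mmp9 lies farthest to the right at 0.90, and Timp3 probe A, Mmp3, Adam15 and Adamts15 are the filled points left of 0.

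The other inhibitors (2 tested), binding partners (5 tested) and host genes (3 tested) gave 0 calls in CS against RA. Over all genes 5.5% were higher and 6.44% lower, so 0 calls among so few genes is near the background. Reck, a membrane-anchored inhibitor of matrix metalloproteinases, had a log2 difference of -0.17 (adjusted p = 0.232). Pcolce, an enhancer of procollagen processing whose protein holds a TIMP-like domain, had a difference of 0.02 (adjusted p = 0.919). Among 5 binding partners, the tetraspanin Cd63, which binds TIMP1, had a difference of 0.25 (adjusted p = 0.0869). The matrix protein Efemp1, which binds TIMP3, had a difference of -0.26 (adjusted p = 0.136). The endocytic receptor Lrp1, the integrin subunit Itgb1 and the VEGF receptor Kdr lay between -0.11 and 0.11. The host genes Syn1, Syn2 and Syn3 had differences of -0.27, -0.06 and -0.12 (adjusted p = 0.06, 0.818 and 0.362) and were detected on 4, 15 and 8 of 20 arrays. The Syn3 probe was thus undetected on most arrays, whereas both probes of Timp3, the gene inside it, were detected on every array.

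The shift of a protease relative to its inhibitor was compared on each array, as log2 protease signal minus log2 signal of the inhibitor's brighter probe. Such a value depends on both probes' brightness, so only its difference between CS and RA was read. For 5 pairs this difference was tested by an exact two-sided permutation test within batches (1400 permutations, smallest possible p 0.00143). Mmp14 minus Timp2 was -2.48 ± 0.472 in CS and -3.07 ± 0.153 in RA in batch 1 (SD, n = 3 each), and -1.93 ± 0.148 in CS and -2.36 ± 0.279 in RA in batch 2 (SD, n = 4 each). It rose by 0.50 in CS (exact permutation p = 0.00714, adjusted over the 5 pairs 0.0357), by 0.59 in batch 1 and by 0.43 in batch 2, where the groups overlapped each time. This call was lost in 8 of 14 tests with an array left out, namely without RA replicate 1, 3, 4 or 5 (adjusted p = 0.0786, 0.0964, 0.0643 and 0.0643) and without CS replicate 2, 4, 5 or 7 (adjusted p = 0.05, 0.0714, 0.0714 and 0.0714). The difference itself stayed between 0.43 and 0.60 in all 14 tests. Taken singly, Mmp14 differed by 0.34 and Timp2 by -0.16, so the larger part lay in Mmp14, and Timp2 alone was not called.

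The other 4 pairs did not pass. Mmp9 minus Timp1 differed by 0.73 (exact permutation p = 0.0286, adjusted 0.0714), by 0.42 in batch 1 and 0.97 in batch 2. It passed without RA replicate 2 or 6 (adjusted p = 0.0464 each) and without CS replicate 3 (adjusted p = 0.0321). Taken singly, Mmp9 differed by 0.90 and Timp1 probe A by 0.17 in the same direction, so the pair differed by less than Mmp9 alone. Adam17 minus Timp3 differed by 0.32 (exact permutation p = 0.0771, adjusted 0.129), by 0.23 in batch 1 and 0.38 in batch 2, and passed without CS replicate 1 (adjusted p = 0.0393). Mmp2 minus Timp2 differed by 0.43 (exact permutation p = 0.141, adjusted 0.177), and Mmp12 minus Timp1 by 0.15 (exact permutation p = 0.276, adjusted 0.276). Mmp12 minus Timp1 had opposite signs in the batches, -0.16 in batch 1 and 0.39 in batch 2. Neutrophil markers differed between the same arrays, as given above, and their part in the Mmp9 value was not tested.

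**Figure D5:**
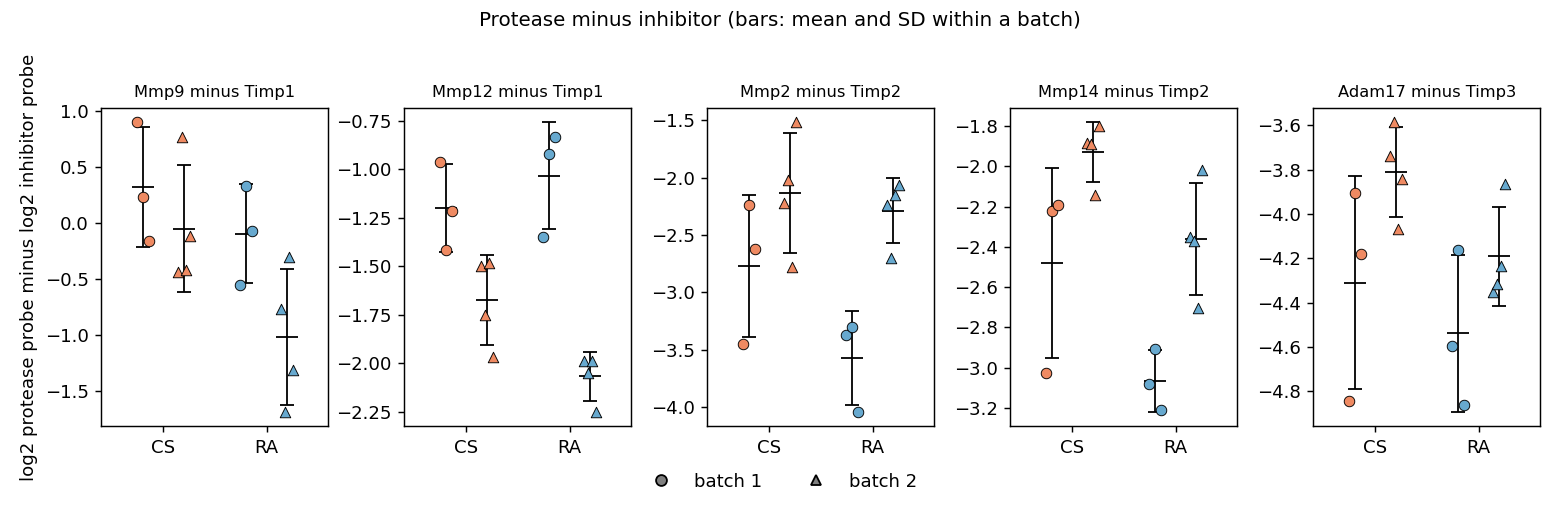
Log2 protease signal minus log2 inhibitor signal (vertical axes, a separate range per panel) on each CS and RA array for 5 pairs. Circles are batch 1, triangles batch 2, and bars give the mean and SD within a batch. Mmp14 minus Timp2 averaged -1.93 in CS and -2.36 in RA in batch 2.

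Genes whose pattern over the 20 arrays was most like that of each Timp were ranked by Pearson's r among 11192 genes, after the batch difference was removed. The r values are descriptive, since the arrays share groups and normalization and the genes were picked for their r. For Timp3 probe A the 5 highest were Epb41l5 (0.96), Zfp235 (0.95), Uhrf2 (0.94), D030056L22Rik (0.92) and Ubn2 (0.92). The difference between CS and RA is part of this r, so the direction of these genes in CS is no independent result. For Timp2 they were Dusp7 (0.89), Fmo5 (0.89), Spag9 (0.89), Rai14 (0.88) and Calcoco1 (0.88). For Timp1 probe A they were Mrgprf (0.76), Mia (0.76), Ctsk (0.75), Dbi (0.71) and Ttc36 (0.70). Ctsk encodes cathepsin K, a collagen-cutting protease, and Mia a small secreted protein of cartilage. For Timp4 they were Xirp1 (0.88), Scn4b (0.87), Abra (0.86), Capn13 (0.86) and Lmod1 (0.84). Xirp1 and Abra encode proteins of striated muscle, Scn4b a subunit of sodium channels and Lmod1 an actin-binding protein of smooth muscle.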

How the data were processed

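Signals were deposited as linear bead intensities without normalization, per the file headers, and came from BeadStudio, per the submitters' processing notes. The software's version and any background subtraction are not stated there. Of all signals, 0 were negative. Detection p-values were deposited beside them, per the file headers, and each was paired with the signal column before it. Within an array, this p never rose with its own signal (0% of steps), against at least 1.41% of steps for any other array. The authors' deposited log2 values equalled the log2 signal shifted to a median of 8 per array (largest difference 0.00647) and served as an alternative.

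Background was corrected with limma's nec (offset 16, negative controls inferred from the detection p-values), followed by quantile normalization and log2, in R 4.3.3 with limma 3.58.1. The filter kept the 17012 probes (66.2%) detected on 3 or more of 20 arrays at a detection p under 0.05. The fits were per probe, by lmFit and eBayes with Benjamini-Hochberg adjustment over 17012 probes. For gene lists the probe with the highest mean signal stood for a gene. The fits were tested on simulated data. No arrays were identical (highest Spearman correlation 0.978). The 22 pairs of arrays with the same replicate number here had deviation correlations of -0.32 to 0.31, 3 of them over 0.1. Replicate numbers were therefore not taken as pairs. The numbers follow the order of the samples within a group, and the labels number the CS_Los samples differently. Pairs with a CS_Los array thus do not share a number in the labels.

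The annotation named 23141 probes with 1 symbol and 0 with several. Named genes were all Timp probes, up to 4 called members of each list, the proteases of the pairs and the 5 genes nearest to each Timp in r. A further few list members, named with values that did not pass, were chosen after their values were seen. The members and lists were chosen with earlier results of these data known. The labels' protocol speaks of 3 groups of mice and the labels of 4. Alternatives covered background correction, centring, the detection filter, 1 probe per gene, eBayes settings, array weights, batch treatment, a replicate block and leaving out each array.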

Additional observations from a re-analysis of the deposited data

How the results depend on the processing

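Of the single-probe differences, 314 kept their sign and side of the threshold under other settings, 3 lost a call, 2 gained one and 7 turned sign. With 1 array left out the numbers were 354, 1, 2 and 29. Changing the detection filter or taking 1 probe per gene left the log2 differences as they were, so no sign was free to turn there. Timp1 probe A in CS against RA was 0.17 in the main fit, without the detection filter and with 1 probe per gene. Only Timp3 probe A in CS against RA was called in the main fit, and staying uncalled counted as kept. The counts of kept differences therefore do not measure robustness.

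The count of Timp probes called in CS against RA was 2 with the authors' log2 values and with array weights, and 0 in batch 1 alone, with no batch term and with all 20 arrays. It ran from 0 to 2 with an array left out. The count of all probes called was 75 in batch 1 alone, 872 in batch 2 alone, 484 with no batch term and 843 with all 20 arrays, and 1368 to 2241 with an array left out. Timp3 probe A lay between -0.53 and -0.44 over 13 settings, and the mean of both Timp3 probes, chosen after seeing the data, gave -0.37. The replicate block gave Timp3 probe A -0.47 (limma adjusted p = 0.0144) and changed no call of a Timp probe. For CS_Los arrays its numbers were not those of the labels.

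For the interaction of smoke with batch, 0 probes were called without background correction, with 75th percentile centring and with the authors' values, 2 with 1 probe per gene and with robust eBayes, and 3 without the detection filter and with array weights. With an array left out the count was 1 to 4. All 20 arrays gave 3 called probes in CS_Los against CS, 3 in CS_Los against RA_Los, 35 in CS_Los against RA and 0 in RA_Los against RA. RA_Los against RA also had 0 without background correction, with 75th percentile centring, with the authors' values and without the filter, and 0 to 1 with an array left out. CS_Los against RA had 0 with 75th percentile centring and the authors' values, and 1 to 5 with an array left out.

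Signs turned for Timp4 in CS_Los against RA_Los (0.011 without background correction, 0.041 with array weights) and in CS against RA (-0.38 in batch 1). They turned for Timp2 in CS_Los against CS (0.090 with 75th percentile centring, 0.24 with the authors' values), for Timp1 probe B in CS against RA (-0.033 in batch 2) and for Timp3 in RA_Los against RA (0.023 with the mean of probes, chosen after seeing the data). Mmp12 minus Timp1 was -0.16 in batch 1. Mmp14 minus Timp2 was 0.59 in batch 1 and 0.43 in batch 2, neither past the threshold (adjusted p = 0.6 and 0.0952). In batch 1 the exact test of 3 against 3 arrays cannot give a p below 0.1, so its miss says nothing. In batch 2 the smallest possible p is 0.0286, and 1 pair alone at that value could not pass after adjustment over the 5 pairs. The miss in batch 2 therefore says little. The cause of the other changes was not tested.

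With an array left out, signs turned as follows. In CS against RA, Timp1 probe B ran from -0.030 to 0.12 and Timp4 from -0.083 to 0.14. In CS_Los against CS, Timp1 probe B ran from -0.0039 to 0.26, Timp2 from -0.22 to 0.25, Timp3 probe A from -0.14 to 0.35 and probe B from -0.065 to 0.13. In RA_Los against RA, Timp3 probe A ran from -0.20 to 0.084 and probe B from -0.11 to 0.41. In CS_Los against RA_Los, Timp1 probe B ran from -0.0064 to 0.16, Timp2 from -0.39 to 0.090 and Timp4 from -0.51 to 0.55. In CS_Los against RA, Timp4 ran from -0.061 to 1.01. Among pairs no sign turned but calls did: Mmp9 minus Timp1 ran from 0.57 to 0.85, Mmp14 minus Timp2 from 0.43 to 0.60 and Adam17 minus Timp3 from 0.25 to 0.43. Without a turn of sign, many values moved by over 1.5 times, and those given here are examples. Timp4 in CS_Los against CS ran from 0.32 to 1.39 with an array left out and was 0.39 with the authors' values. The interaction of smoke with batch for Timp4 was -0.35 without background correction. With an array left out, Timp3 probe A ran from -0.55 to -0.062 in CS_Los against RA_Los. In CS_Los against RA, Timp2 ran from -0.51 to -0.031 and Timp3 probe A from -0.59 to -0.098. Timp4 ran from 0.021 to 0.90 in RA_Los against RA, and Timp1 probe A from 0.024 to 0.23 in CS_Los against CS. Under other settings Timp1 probe A in CS against RA ran from 0.035 to 0.35. Timp4, near background, is the member that signal limits most.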
